A study of Mus musculus with 18 samples.

Results

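The genes described here encode the proteasome and its helpers: every gene of the deposited expression table whose symbol is Psma, Psmb, Psmc, Psmd, Psme, Psmf or Psmg followed by a number. The rule reads symbols only, no measured value, and finds 48 of the 17198 genes. The RNA came from cultured neurons of mouse dorsal root ganglia (DRG), the clusters of sensory cell bodies beside the spinal cord. The wild-type (WT) cultures and those heterozygous for the tm1a allele of Dynlrb1, written Dynlrb1(tm1a/+) and called HET, were each collected at 12, 24 and 48 h. A group of genotype and time held 3 biological replicates, so 18 cultures fell into 6 groups. A tm1a allele is a germline knockout-first insertion and needs no Cre driver, so it is carried by the non-neuronal cells of a culture too. The strain, sex and age of the mice and the number of animals per culture are not given in the sources used here. Dynlrb1, a light chain of the motor cytoplasmic dynein, had 5229 to 6674 normalized counts in the WT cultures and 2716 to 4087 in the HET cultures, with a HET mean at 56.4% of the WT mean.

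The proteasome is the protease of the cytosol and nucleus that degrades proteins marked with ubiquitin. Its barrel-shaped 20S core has outer rings of alpha subunits, which gate the channel, and inner rings of beta subunits, of which Psmb5, Psmb6 and Psmb7 cut the substrate. The 19S cap recognises ubiquitin, unfolds the substrate with a ring of ATPases and feeds it into the core, and dedicated chaperones assemble core and cap. Interferon signalling replaces the cutting subunits by Psmb8, Psmb9 and Psmb10, giving the immunoproteasome that makes peptides for antigen presentation. Neurons depend on the proteasome for synaptic and axonal protein turnover. When it is inhibited, the transcription factor Nfe2l1 raises the subunit genes together, through antioxidant response elements in their promoters.

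Since such elements are known in subunit promoters, these were read for their letters. RefSeq promoters (GRCm38.p6, the mm10 build) were found for 40 of the 48 genes, and the 250 bases before the start were searched on both strands. Psmg1 and Psmd8 rose most from 12 to 48 h in WT. Of the cutting subunits, Psmb6 rose and Psmb5 did not pass the test. Psmd11 was highest at 24 h in HET. The promoters of these 5 genes, on which the results turn, are shown. They lie at chr16:95990961-95991210 (minus strand, Psmg1), chr7:29180674-29180923 (minus, Psmd8), chr11:70525107-70525356 (plus, Psmb6), chr14:54617996-54618245 (minus, Psmb5) and chr11:80428365-80428614 (plus, Psmd11). Each is written 5′ to 3′ on the strand of its gene and ends at the base before the RefSeq start. Capitals mark a match to 1 of the 6 motifs searched.
Psmg1: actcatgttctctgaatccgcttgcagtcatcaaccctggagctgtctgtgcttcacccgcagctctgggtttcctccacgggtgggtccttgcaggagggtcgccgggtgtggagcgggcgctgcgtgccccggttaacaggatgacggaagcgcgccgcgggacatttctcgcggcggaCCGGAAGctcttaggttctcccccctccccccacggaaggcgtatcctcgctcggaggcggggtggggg
Psmd8: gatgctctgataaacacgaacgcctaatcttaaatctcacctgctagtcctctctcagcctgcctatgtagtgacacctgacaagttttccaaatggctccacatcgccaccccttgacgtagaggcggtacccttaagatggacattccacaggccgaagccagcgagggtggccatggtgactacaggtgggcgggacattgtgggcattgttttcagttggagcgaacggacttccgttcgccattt
Psmb6: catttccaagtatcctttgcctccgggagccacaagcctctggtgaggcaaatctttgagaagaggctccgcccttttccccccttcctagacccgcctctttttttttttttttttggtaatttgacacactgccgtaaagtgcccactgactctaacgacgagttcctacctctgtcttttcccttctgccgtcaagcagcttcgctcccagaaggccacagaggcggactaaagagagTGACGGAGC
Psmb5: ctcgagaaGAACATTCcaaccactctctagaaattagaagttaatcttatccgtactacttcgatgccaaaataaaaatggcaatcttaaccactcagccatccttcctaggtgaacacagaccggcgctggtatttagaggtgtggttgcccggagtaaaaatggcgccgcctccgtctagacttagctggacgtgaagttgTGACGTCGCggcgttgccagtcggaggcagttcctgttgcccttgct
Psmd11: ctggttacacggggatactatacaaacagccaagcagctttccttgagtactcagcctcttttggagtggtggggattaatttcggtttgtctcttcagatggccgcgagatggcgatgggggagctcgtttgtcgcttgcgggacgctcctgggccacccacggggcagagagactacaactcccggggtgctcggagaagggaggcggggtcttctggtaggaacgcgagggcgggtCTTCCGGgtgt
The antioxidant response element core TGACNNNGC stood in 5 of 40 promoters (12.5%), those of Psmb5, Psmb6, Psmc6, Psmd12 and Psmd9, against 13.56% of the 12599 measured genes with a RefSeq promoter. Psmb5 and Psmb6 both hold it. Psmb6 passed the test of 48 h against 12 h in WT and Psmb5 did not, but these genes were not compared with each other. The part of the motif in any change was not tested. The ETS core CCGGAAG stood in 12 of 40 (30%) against 12.92% of all. It is present before Psmg1 and, on the other strand, before Psmd11. A CCAAT box, the letters bound by NF-Y, stood in 14 of 40 (35%) against 39.53%, the core of the interferon-stimulated response element in 3 of 40 (7.5%) against 3.111%, the heat shock pair GAANNTTC in 3 of 40 (7.5%) against 6.302%, and the NRF1 palindrome in 1 of 40 (2.5%) against 1.579%. GAANNTTC is its own reverse complement, as is the NRF1 palindrome, and no motif searched contains another. NRF1 here is nuclear respiratory factor 1, a factor other than Nfe2l1. The window before Psmd8 held none of the 6.

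All 48 genes were found by Ensembl ID in the GENCODE M21 annotation, also of mm10, on 16 chromosomes. Neighbouring pairs were Psmb5 and Psmb11 on chromosome 14, 3411 bases apart, Psme1 and Psme2 on chromosome 14, 5912 bases apart, and Psmb9 and Psmb8 on chromosome 17, 9957 bases apart. The largest riser, Psmg1, lies at chr16:95979933-95990960, and Psmb8 at chr17:34197721-34201454. Of the 48, 8 have another annotated transcript that matches at least 50% of their own with at least 95% identity: Psma4, Psma5, Psmb3, Psmb5, Psmc1, Psmd2, Psmd11 and Psme2. The copies of the first 6 are pseudogenes, 2 of them for Psma5 and 3 for Psmb3, and none of these is a gene of the deposited table. How reads shared with a copy were counted is not given in the sources used here, so the values of these 8 genes are uncertain to that extent.

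Proteasome genes were among the more abundant genes of the cultures. On the FPKM scale, which accounts for gene length, the median of the 48 genes over the 18 cultures was 81.3, against 5.63 for all genes. The mean was above 100 FPKM for 20 of the 48, against 3.78% of all genes, and above 10 FPKM for 41. The constitutive beta subunits were the most abundant group, with a median of 156 FPKM over 7 genes. Psmb6, which cuts after acidic residues, led all 48 with 197 ± 27.0 FPKM (SD, n = 18), followed by Psmb1 with 176 ± 16.4 and the ATPase Psmc3 with 174 ± 11.4. Psmc1 was next with 161 ± 18.9. These SDs pool genotypes and times, and the genes were measured in the same cultures. The SDs therefore do not test whether neighbours in the order differ. The 6 ATPases had a median of 138 FPKM, the 11 non-ATPase subunits 92.7 and the 8 alpha genes 93.8.

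Within the rings the levels were not uniform. Psma3 (15.8 ± 1.27 FPKM) and Psma5 (14.2 ± 1.42) stood well below Psma1, Psma2, Psma4, Psma6 and Psma7, which ran from 83.8 to 121 FPKM, although each alpha subunit occupies the same number of places in a ring. Psmb3 (59.6 ± 8.83) and Psmb5 (59.0 ± 6.92), the subunit with the chymotrypsin-like cut, were below the other constitutive beta genes, which ran from 144 to 197. Psma5, Psmb3 and Psmb5 are among the genes with near copies, while Psma3 has none at the limits used. Of the other genes with near copies, Psmc1 (161 FPKM), Psmd2 (134) and Psma4 (83.8) were higher than all of these. Psmd11 (40.4) and Psme2 (7.29) were below Psmb5. The part of read sharing in these levels was not tested. The assembly chaperones were less abundant than the subunits, with medians of 11.5 FPKM for the 4 core chaperones and 11.6 for the 3 cap chaperones. Of the activators, Psme3 (40.0 ± 2.68 FPKM) and Psme4 (37.6 ± 4.25) were higher than Psme1 (28.0 ± 4.45) and Psme2 (7.29 ± 1.02). Psme2b, a near-identical gene outside the symbol rule (99.37% identity), had a mean of 18.99 FPKM.

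The tissue-restricted genes were low. Psma8, the alpha subunit of the testis, had 0.235 ± 0.0818 FPKM, and Psmb11, the beta subunit of the thymus, 0.0381 ± 0.0263. Psmb9 had 1.44 ± 0.470 FPKM, Psmb8 8.91 ± 2.18 and Psmb10 15.4 ± 3.44. In WT cultures at 12 h the inducible subunits therefore stood at 17.98% ± 3.28 (Psmb8 against Psmb5), 1.04% ± 0.143 (Psmb9 against Psmb6) and 11.6% ± 1.21 (Psmb10 against Psmb7) of the constitutive subunit whose place they take (FPKM ratio, SD, n = 3). The cultures are mixed, so fewer cells of a type and less RNA per cell cannot be told apart in any of these values.

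**Figure D1:**
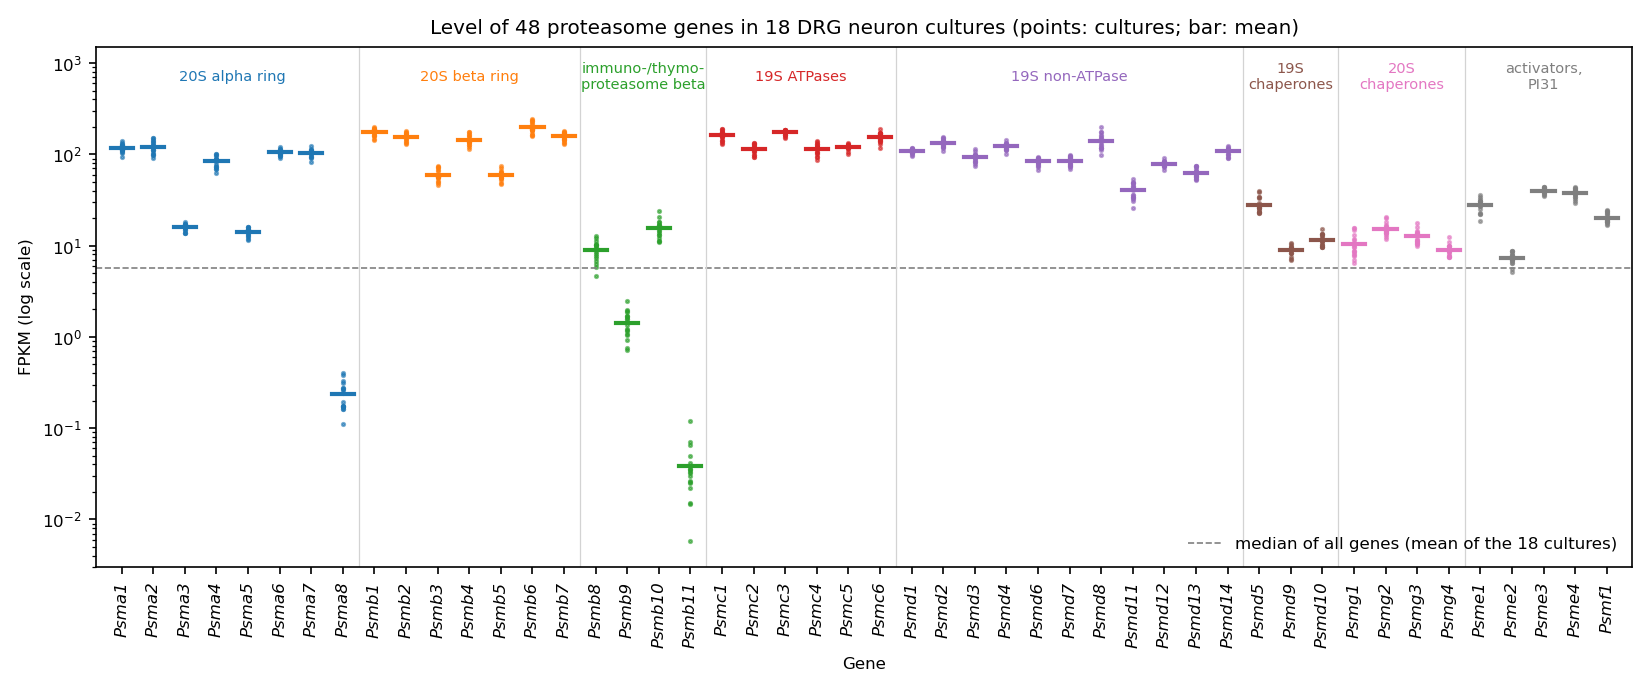
Level of each of the 48 genes in FPKM on a log scale, grouped by role; points are the 18 cultures, bars their mean, and the dashed line is the median of all genes (5.63 FPKM). Most core and cap subunits lie near 100 FPKM, the chaperones near 10 and Psma8 and Psmb11 below 1.

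The main change was a rise of the constitutive proteasome in WT cultures between 12 and 48 h. Of the 48 genes, 29 were higher at 48 h and 1 was lower (limma with Benjamini-Hochberg adjustment over all genes, adjusted p under 0.05). In that comparison 30% of all genes were called higher and 17.1% lower. The median log2 fold change of the 48 was 0.30, against 0.11 for all genes, and 39 of 48 lay above 0, against 57.7% of all genes. The rise covered the catalytic core, the cap and the chaperones that assemble them, and the called genes rose by between 0.22 (Psmc3) and 1.0 (Psmg1) on the log2 scale. In the authors' deposited table, 22 of the 48 were higher and 1 lower at an adjusted p under 0.05 (28.1% and 17.2% of all genes), and all 23 are among the 30 found here. The labels say only that replicates are biological, so the p-values measure the spread between these cultures.

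These folds are on a scale the authors normalized. On the authors' other per-sample columns, called plain adjusted columns here, the median of all genes fell from 0.11 to 0.01, a shift of 0.105. There 21 of the 48 genes were higher and 3 lower (24.3% of all genes were higher), 22 of these 24 being also called on the main scale. The median of the 48 was 0.19 and 36 lay above 0. Leaving out each culture in turn gave between 22 called genes (without WT 48 h replicate 2) and 30. Markers of other cells moved over the same interval in WT. The summed normalized count of 7 fibroblast markers went from 8792 to 16012 at 12 h to 24415 to 40440 at 48 h, and that of 22 sensory neuron markers from 789786 to 923387 down to 682409 to 740149. That of 12 satellite glia and Schwann cell markers went from 48657 to 66167 down to 35988 to 42058. Here and below, this last sum is mostly Apoe, Glul and S100b, with highest group means of 20956, 18456 and 17381. No other gene of that list had a group mean above 2408, so the sum does not show that the list fell as a whole. The largest fibroblast markers were Col1a2 and Fn1, with highest group means of 10939 and 9528. Col3a1 and Col1a1 followed with 4265 and 4099. The fibroblast sum likewise does not show, here or below, that its list rose as a whole. The part of these marker changes in the proteasome result was not tested.

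Among the alpha subunits, 4 of 8 rose in WT and none fell, with a median of 0.29. Psma2 had 3895, 3981 and 3596 normalized counts in the 12 h cultures, 4626, 3836 and 4923 at 24 h and 5968, 5994 and 5460 at 48 h. The 48 h cultures all lie above the others, while 24 h overlaps 12 h. Its log2 fold change from 12 to 48 h was 0.60 ± 0.10 (SE, adjusted p = 0.000146 in limma). Psma4 (0.53), Psma5 (0.32) and Psma7 (0.26) also rose, and Psma1 (0.17), Psma3 (-0.04), Psma6 (0.16) and the low Psma8 (0.54) did not pass the test.

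Of the 7 constitutive beta subunits, 6 rose, with a median of 0.32 over all 7. Psmb6 had 7859, 7337 and 6855 normalized counts at 12 h, 8082, 6987 and 8539 at 24 h and 9917, 10312 and 10506 at 48 h. Each 48 h culture exceeded every earlier one, and the log2 fold change from 12 h was 0.48 ± 0.10 (SE, adjusted p = 0.000874). Psmb7, which makes the trypsin-like cut, had 5928, 5798 and 5272 at 12 h, 5931, 5401 and 6664 at 24 h and 7213, 6891 and 7069 at 48 h. Again the 48 h cultures were the highest, with a log2 fold change of 0.32 ± 0.09 (SE, adjusted p = 0.00907). Psmb5 did not pass the test. It had 2124, 2690 and 1728 normalized counts at 12 h, 1993, 2276 and 1885 at 24 h and 2378, 2237 and 1996 at 48 h. The groups overlap throughout, with a log2 fold change from 12 to 48 h of 0.03 and a 95% interval from -0.27 to 0.34, and the value was -0.072 on the plain adjusted columns.

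In the cap, 4 of 6 ATPases (median 0.30) and 7 of 11 non-ATPase subunits (median 0.27) rose in WT and none fell. Psmc4 (0.50), Psmc1 (0.44), Psmc6 (0.39) and Psmc3 (0.22) rose, while Psmc2 (-0.07) and Psmc5 (0.12) did not pass. Psmd8, a lid subunit, changed most. It had 7316, 7283 and 6136 normalized counts at 12 h, 9115, 7955 and 9129 at 24 h and 10940, 12405 and 11056 at 48 h in WT. The 3 time points do not overlap, and the log2 fold change from 12 to 48 h was 0.73 ± 0.10 (SE, adjusted p = 4.59e-05). The large scaffold subunits Psmd1 (-0.07) and Psmd2 (0.32) parted, since only Psmd2 rose. Psmd14, the deubiquitinase of the lid, rose by 0.27, and Psmd4, a ubiquitin receptor, by 0.23.

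The assembly chaperones rose as a whole in WT: 4 of 4 core chaperones (median 0.59) and 3 of 3 cap chaperones (median 0.49). Psmg1, which pairs with Psmg2 to seed the alpha ring, had 347, 267 and 329 normalized counts at 12 h, 393, 324 and 415 at 24 h and 631, 604 and 643 at 48 h. All 48 h cultures lie far above all earlier ones. The log2 fold change from 12 h was 1.0 ± 0.15 (SE, adjusted p = 0.000106), the largest of the 48 genes. Psmd5, which holds ATPases during base assembly, had 1962, 1959 and 1907 at 12 h, 2230, 1916 and 2280 at 24 h and 3265, 3329 and 2853 at 48 h. Here too only 48 h stands apart, with a log2 fold change of 0.69 ± 0.11 (SE, adjusted p = 0.000147). Psmg2 (0.58), Psmg3 (0.60), Psmd10 (0.49), Psmd9 (0.39) and Psmg4 (0.39) followed. Psmg4 lay at the threshold (adjusted p = 0.0493) and lost the call under 19 of 26 alternatives. Psmd9 lost it under quantile normalization.

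**Figure D2:**
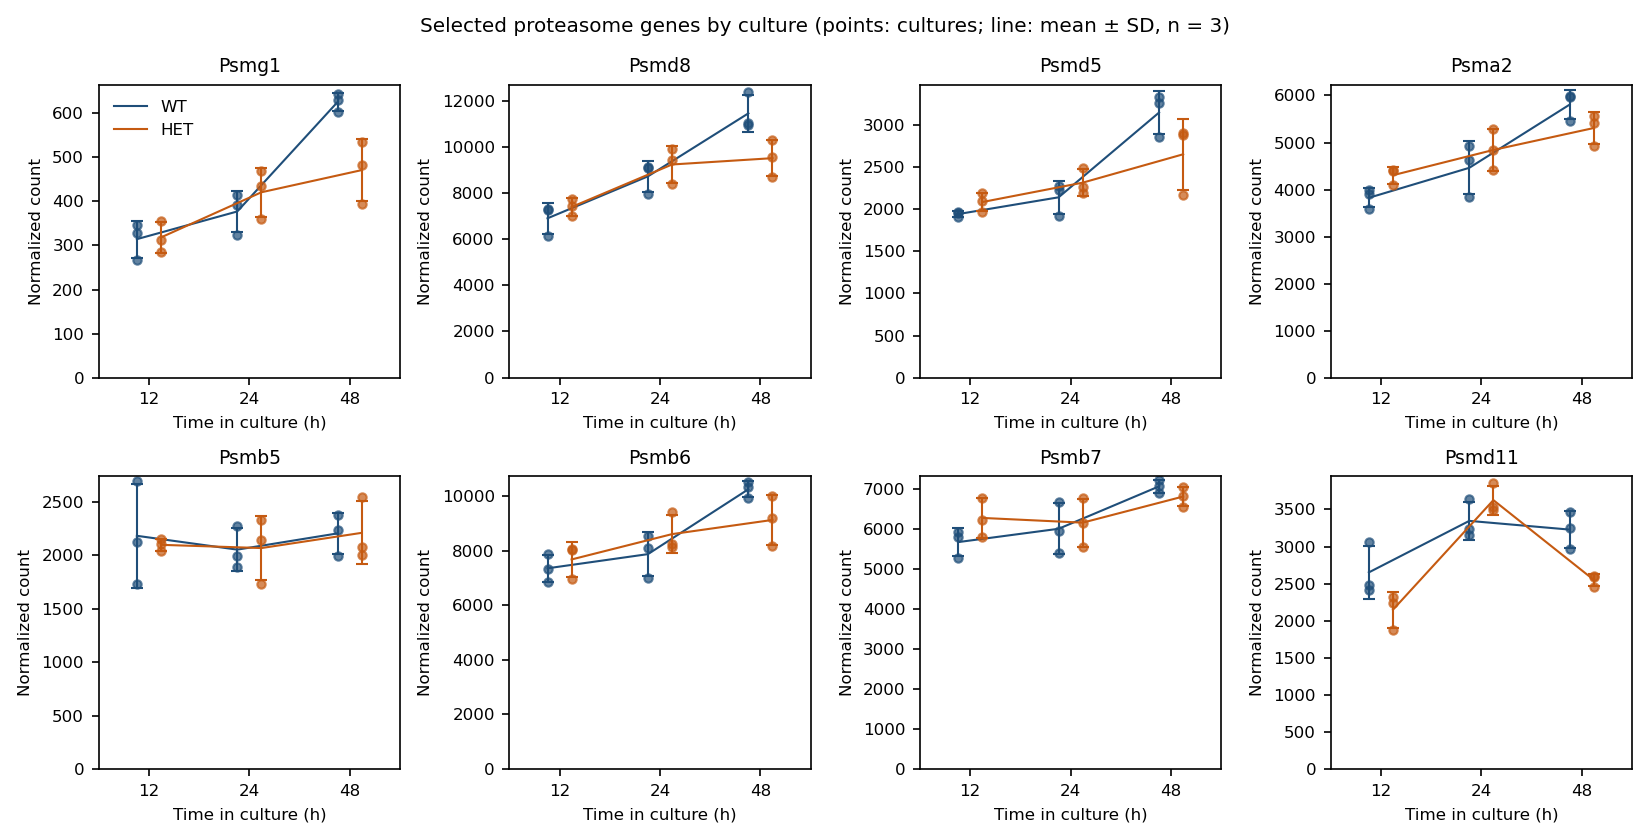
Normalized counts of 8 genes by time in WT (blue) and HET (orange); points are cultures and lines join the means ± SD of 3. In WT, Psmg1, Psmd8, Psmd5, Psma2, Psmb6 and Psmb7 are highest at 48 h in every culture, Psmb5 overlaps throughout, and Psmd11 peaks at 24 h in HET.

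Among the activators and their inhibitor, 1 of 5 genes rose. Psme4, which encodes the activator PA200, rose by 0.39 in WT from 12 to 48 h, while Psme1 (-0.25), Psme2 (0.06), Psme3 (0.12) and the inhibitor gene Psmf1 (-0.04) did not pass the test. Psme1 and Psme2 form the interferon-inducible 11S cap, and Psme3 its nuclear counterpart.

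Of the inducible catalytic subunits with Psmb11, 1 of 4 fell and none rose, with a median of -0.49. Psmb8 was the only 1 of the 48 genes called lower from 12 to 48 h in WT. It had 520, 566 and 522 normalized counts at 12 h, 373, 341 and 488 at 24 h and 323, 300 and 409 at 48 h. Every later culture lies below every 12 h culture, and the log2 fold change at 48 h was -0.65 ± 0.21 (SE, adjusted p = 0.0184). The call was lost without WT 12 h replicate 2, WT 48 h replicate 1 or WT 48 h replicate 2, with an adjusted p of up to 0.0796. Psmb9 had 56.8, 56.5 and 64.1 at 12 h, 52.9, 35.9 and 52.7 at 24 h and 34.9, 38.3 and 31.1 at 48 h. The 48 h cultures do not overlap those of 12 h, but its log2 fold change of -0.75 ± 0.35 (SE) gave an adjusted p of 0.0863. Psmb10 had 962, 774 and 839 at 12 h, 691, 587 and 767 at 24 h and 634, 592 and 842 at 48 h. WT 48 h replicate 3 overlaps the 12 h cultures, and the log2 fold change of -0.33 ± 0.15 (SE) had an adjusted p of 0.0902. On the plain adjusted columns all 3 were called lower, with values of -0.76, -0.86 and -0.43 for Psmb8, Psmb9 and Psmb10.

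As shares of the constitutive partner in FPKM, Psmb8 went from 17.98% ± 3.28 to 11.3% ± 2.88 of Psmb5, Psmb9 from 1.04% ± 0.143 to 0.437% ± 0.0508 of Psmb6 and Psmb10 from 11.6% ± 1.21 to 7.45% ± 1.42 of Psmb7 between 12 and 48 h in WT (SD, n = 3). In each of the 3 pairs the 12 and 48 h cultures do not overlap, and the mean at 24 h lies between them. Immune cells carry the immunoproteasome at high levels, so their markers are given beside this. The summed normalized count of the 11 macrophage markers measured of 12 listed went from 1846 to 3815 at 12 h to 4406 to 6685 at 48 h in WT. The largest macrophage markers were Lyz2 and Cd68, with highest group means of 2096 and 1525, followed by Csf1r with 483. Here and below, the macrophage sum therefore does not show that its list moved as a whole. Of the 10 neutrophil and red cell markers listed, 6 were measured, all neutrophil genes and none a red cell gene. Their summed normalized count went from 208 to 6438 down to 79.0 to 124, and all 6 were called lower. No marker was at 0. The satellite glia and Schwann cell sum was lower at 48 h without overlap, as given above. The part of these cell types was not tested.

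**Figure D3:**
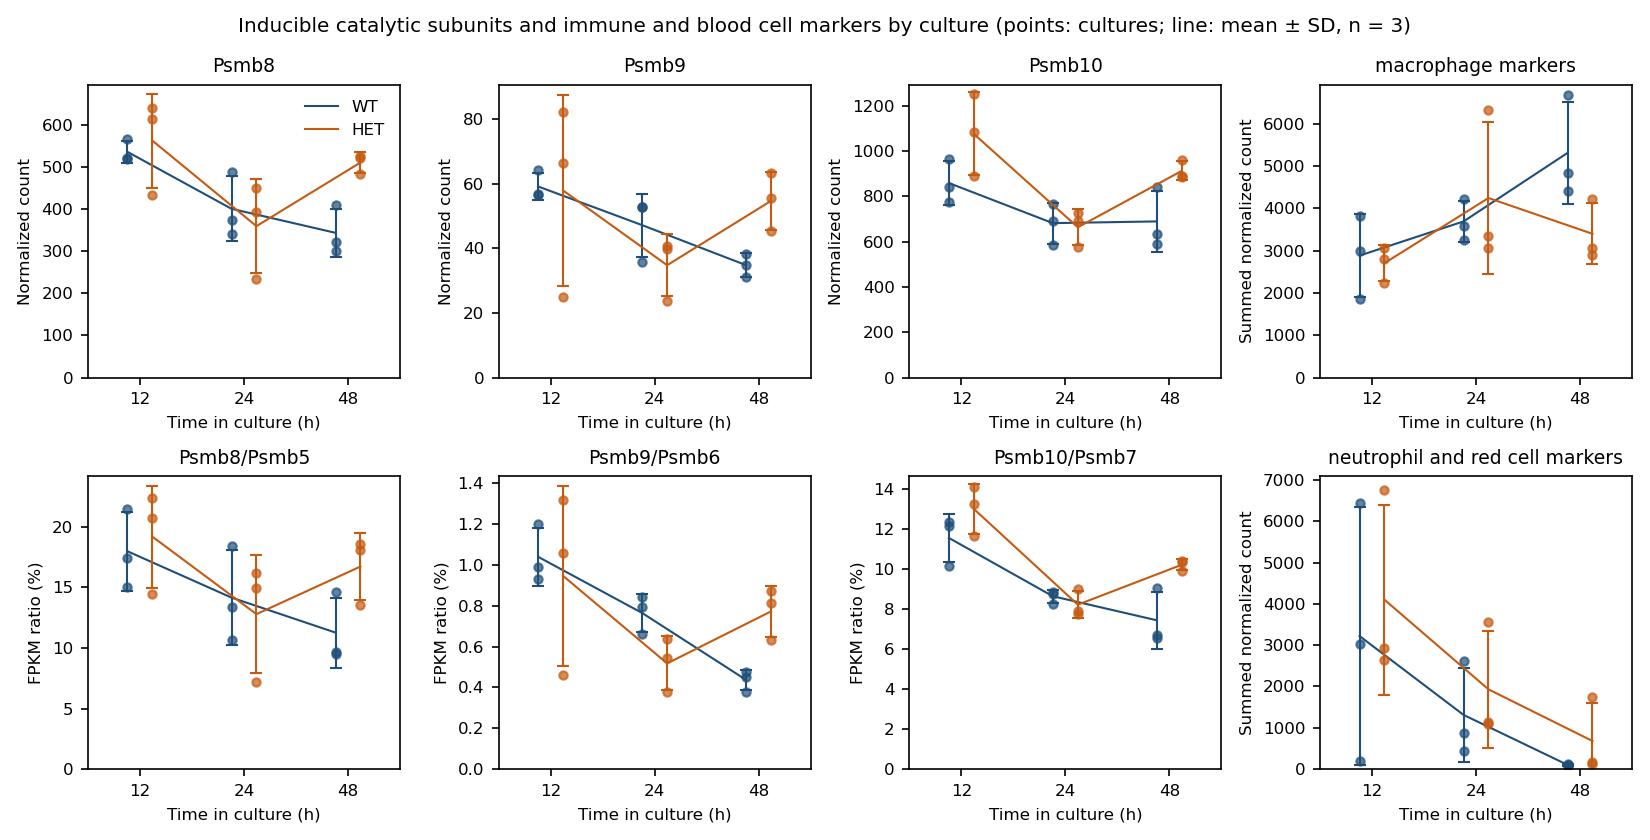
Normalized counts of Psmb8, Psmb9 and Psmb10 (upper row) and their FPKM as a percent of the constitutive partner (lower row). The right column holds summed normalized counts of macrophage and of neutrophil markers. The panel labelled neutrophil and red cell holds no red cell gene. All are by time in WT (blue) and HET (orange), points are cultures and lines the mean ± SD of 3. The inducible subunits are lowest at 48 h in WT for Psmb8 and Psmb9, and at 24 h in HET for all 3.

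In WT the calls appeared after 24 h, although both intervals had the same median. From 12 to 24 h no gene of the 48 was called in WT, where 3.62% of all genes were called in either direction; 15 of the 48 had an unadjusted p under 0.05, against 21.4% of all genes, and the authors' deposited table also calls 0 (3.3% of all genes higher and 1.66% lower). The median was 0.13, against 0.05 for all genes. From 24 to 48 h, 11 were higher and 1 lower, against 17.4% and 10.3% of all genes, and the median was again 0.13, against 0.05. The 11 were Psma2, Psma4, Psmb3, Psmb4, Psmb6, Psmd5, Psmd8, Psmd10, Psmd13, Psmg1 and Psmg2, led by Psmg1 with 0.74. The lower gene was Psmf1, which encodes the proteasome inhibitor PI31, at -0.34 (adjusted p = 0.0203). Its mean was highest at 24 h in both genotypes. In WT it was 2710, 3320 and 2631 normalized counts at 12, 24 and 48 h, and in HET 2870, 3445 and 2920. Without WT 24 h replicate 2 only 4 genes were called from 24 to 48 h, and without WT 48 h replicate 2 only 6, Psmf1 in neither case. The 12 to 24 h count reached 5 without HET 48 h replicate 3 and 1 without HET 12 h replicate 2, cultures that enter only the estimate of the spread.

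In HET cultures more of the 48 genes were called at 24 h than at 48 h. From 12 to 24 h, 8 genes rose and 3 fell, against 13.1% and 5.76% of all genes. The 8 were Psma4 (0.31), Psmc4 (0.32), Psmc6 (0.28), Psmd2 (0.28), Psmd8 (0.32), Psmd9 (0.28), Psmd11 (0.76) and Psme4 (0.30). All 8 are among the 29 that rose in WT by 48 h. The matching share over all genes is not given, so nothing particular to the proteasome genes is read from this overlap. The 3 that fell were the interferon-inducible Psmb10 (-0.69), Psmb8 (-0.68) and Psme2 (-0.45). Psme2b, the near copy of Psme2, was not called in this comparison (-0.21, adjusted p = 0.298 in limma). Psmb10 had 888, 1253 and 1085 normalized counts in the 12 h cultures and 575, 725 and 690 at 24 h. The groups do not overlap (adjusted p = 0.00661). Psmb8 had 435, 639 and 614 at 12 h and 235, 394 and 450 at 24 h, with a slight overlap (adjusted p = 0.0345). Psmb9 had 24.9, 82.3 and 66.4 at 12 h and 23.8, 40.8 and 39.7 at 24 h, overlapping through the low HET 12 h replicate 1, and did not pass. The authors' deposited table calls 4 higher and 2 lower (12.2% and 6.02% of all genes), all among these 11. The count of 11 fell to 4 without HET 12 h replicate 2, 7 without HET 12 h replicate 5, 6 without HET 24 h replicate 1 and 5 without HET 24 h replicate 5. Psmb8 lost its call in 3 of these 4 (HET 24 h replicate 5 kept it), and Psme2 in 9 of 26 alternatives. The macrophage marker sum was 2234 to 3068 at 12 h and 3071 to 6326 at 24 h in HET. The neutrophil sum was 2635 to 6744 and then 1094 to 3559. The sensory neuron sum was 863392 to 1020355 and then 737013 to 779798, and the satellite glia and Schwann cell sum 49820 to 64020 and then 35665 to 48795, both without overlap. Their part was not tested.

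From 12 to 48 h, 3 genes rose in HET and none fell, against 10.6% and 3.62% of all genes. The median was 0.11, against 0.10 for all genes, and on the plain adjusted columns both were 0.01. Psmg1 had 286, 312 and 357 normalized counts at 12 h, 360, 434 and 468 at 24 h and 483, 536 and 395 at 48 h. All 48 h cultures exceed those of 12 h, HET 48 h replicate 3 being the lowest of them, with a log2 fold change of 0.56 ± 0.15 (SE, adjusted p = 0.0265). Psmd8 had 7432, 7011 and 7766 at 12 h, 9427, 8390 and 9925 at 24 h and 9567, 10290 and 8708 at 48 h. Here 24 and 48 h overlap and both exceed 12 h, with a log2 fold change at 48 h of 0.36 ± 0.10 (SE, adjusted p = 0.0250). Psma2 had 4101, 4424 and 4387 at 12 h, 4405, 4833 and 5287 at 24 h and 5422, 5571 and 4933 at 48 h (0.30 ± 0.10, adjusted p = 0.0448). Its 48 h cultures also lie above those of 12 h. The 3 genes are 100% of the HET list and 10.3% of the 29 of WT, and the matching shares over all genes are again not given. The count was 0 without HET 12 h replicate 1 or 2 or HET 48 h replicate 1 or 2, and 7 without HET 48 h replicate 3. The authors' deposited table calls 2 of the 3 higher and none of the 48 lower (11.2% and 4.22% of all genes). From 12 to 48 h in HET the fibroblast marker sum went from 6789 to 11727 up to 15201 to 36084. The satellite glia and Schwann cell sum went from 49820 to 64020 down to 35169 to 40232. The sensory neuron sum went from 863392 to 1020355 down to 768718 to 832279, and the neutrophil sum from 2635 to 6744 down to 119 to 1755. None of these 4 overlaps between the times, and their part was not tested.

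The other genes with values by culture were not called from 12 to 48 h in HET. Psmb6 had 6951, 8030 and 8043 normalized counts at 12 h, 8148, 8251 and 9408 at 24 h and 9181, 10009 and 8174 at 48 h, where 48 h lies above 12 h without passing the test (0.25, adjusted p = 0.0929). Psmb7 had 5802, 6779 and 6228, then 5555, 6138 and 6761, then 6820, 7038 and 6553, overlapping throughout. Psmb5 had 2147, 2035 and 2106, then 2326, 1734 and 2138, then 2546, 2079 and 2000, also overlapping. Psmd5 had 1969, 2191 and 2097, then 2189, 2269 and 2491, then 2884, 2911 and 2165, with HET 48 h replicate 3 inside the range of 12 h (0.34, adjusted p = 0.0504).

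**Figure D4:**
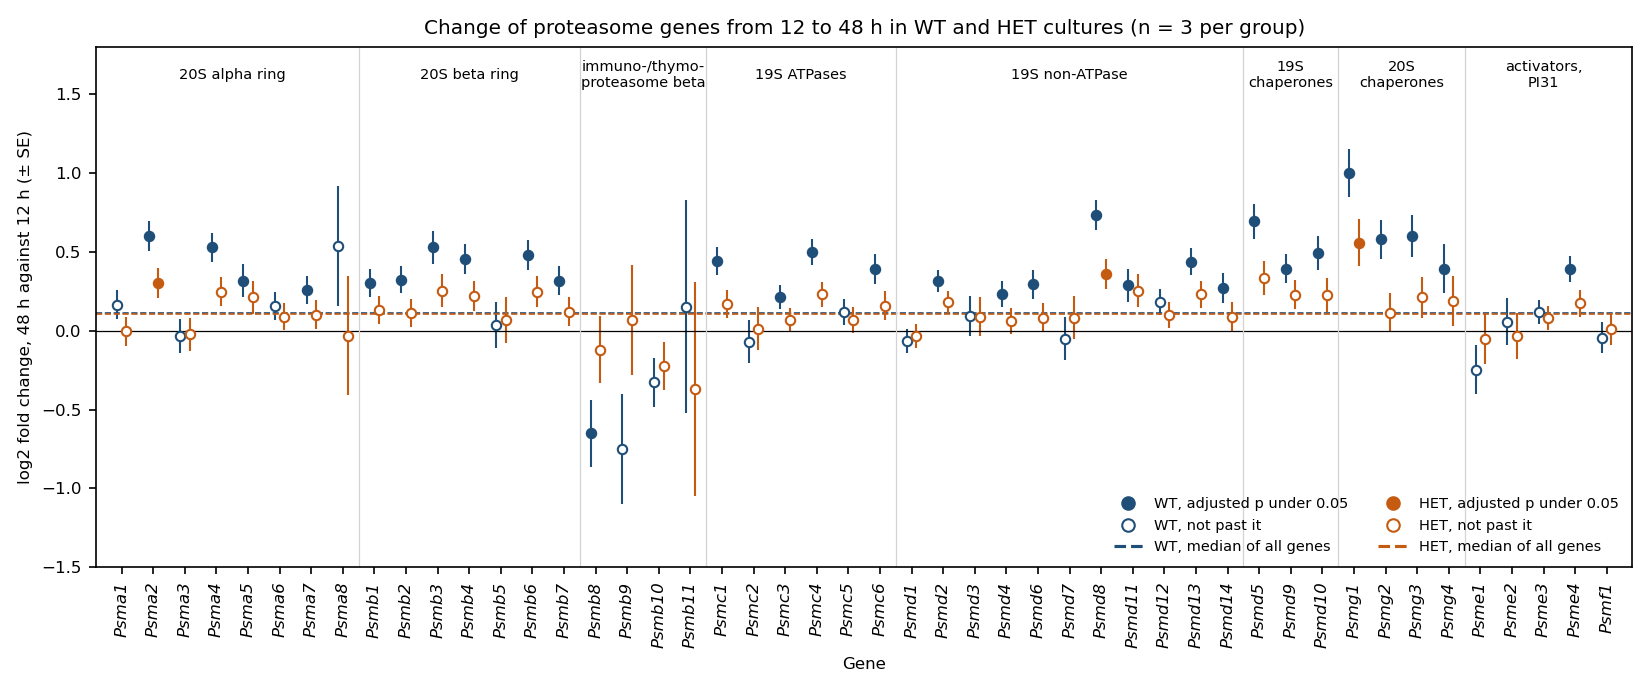
Log2 fold change from 12 to 48 h of each gene in WT (blue) and HET (orange), with its SE; filled points passed an adjusted p of 0.05, and dashed lines mark the medians of all genes (0.11 and 0.10). In WT, 29 filled points lie above 0 and Psmb8 below; in HET, Psma2, Psmd8 and Psmg1 are filled.

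Psmd11, a lid subunit that holds the 19S cap to the core, is singled out here after its values were seen. In HET it had 2245, 1873 and 2325 normalized counts at 12 h, 3852, 3528 and 3497 at 24 h and 2452, 2609 and 2589 at 48 h. The 24 h cultures lie above all others, and the 48 h cultures only slightly above 12 h. It rose by 0.76 ± 0.10 from 12 to 24 h (SE, adjusted p = 0.000886) and fell by 0.51 ± 0.10 from 24 to 48 h (SE, adjusted p = 0.0267), the only 1 of the 48 called in that last interval, where 1.42% of all genes were higher and 1.08% lower. The fall lost its call when any of the 3 HET 24 h cultures or HET 48 h replicate 1 or 2 was left out, and 4 genes were called without HET 48 h replicate 3. In WT it had 2419, 2476 and 3060 at 12 h, 3162, 3638 and 3238 at 24 h and 3251, 3469 and 2965 at 48 h, and its log2 fold change from 12 to 24 h was 0.34 (adjusted p = 0.0753). Its near copy A730017L22Rik (97.935% identity over 52.7% of the transcript) had 52.2 to 83.6 normalized counts in HET at 12 h, 101 to 130 at 24 h and 95.6 to 170 at 48 h, far below Psmd11. From 12 to 48 h in WT the copy rose by 1.63 (adjusted p = 9.31e-05 in limma), where Psmd11 rose by 0.29. That rise of Psmd11 lost its call under 7 of 26 alternatives, among them the plain adjusted columns (0.18). In HET against WT at 48 h the value of the copy was -0.88 (adjusted p = 0.0650 in limma), where that of Psmd11 was -0.34.

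The inducible subunits had higher values at 48 h than at 24 h in HET, without passing the test. Psmb8 had 483, 527 and 522 normalized counts at 48 h, Psmb9 45.2, 63.3 and 55.5, and Psmb10 885, 960 and 891. For each of these 3 genes all 48 h cultures lie above all 24 h cultures, by log2 fold changes of 0.56, 0.66 and 0.47. None passed the test (adjusted p = 0.157, 0.311 and 0.105). In this comparison 6 of the 48 genes lay higher without overlap, against 10.2% of all genes, so the count is near the background. The FPKM shares of the constitutive partner were 16.7% ± 2.79 for Psmb8, 0.773% ± 0.125 for Psmb9 and 10.2% ± 0.282 for Psmb10 at 48 h, after 12.8% ± 4.89, 0.518% ± 0.132 and 8.23% ± 0.676 at 24 h and 19.2% ± 4.20, 0.947% ± 0.439 and 13.0% ± 1.23 at 12 h (SD, n = 3).

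**Figure D5:**
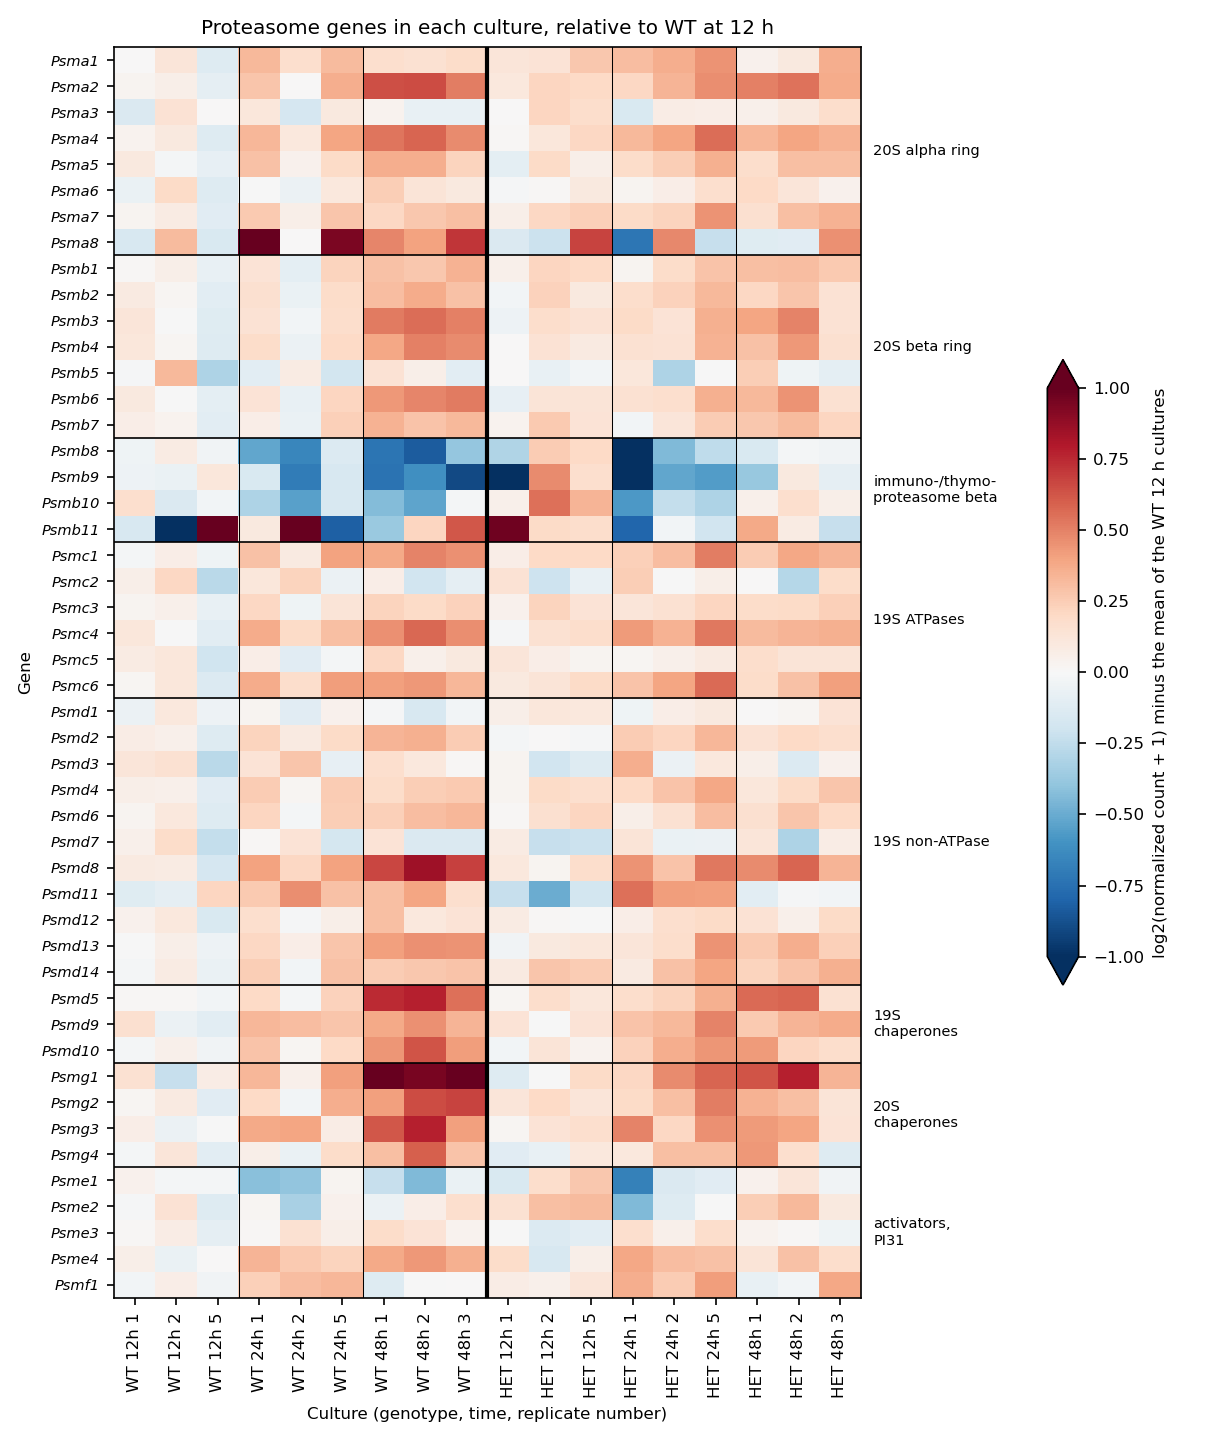
Log2(normalized count + 1) of each gene in each culture minus the mean of the WT 12 h cultures; rows are genes grouped by role, columns cultures, red higher and blue lower, with colours capped at 1 in each direction. The constitutive groups redden toward 48 h in WT, while Psmb8 and Psmb9 turn blue.

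The comparison that the study's design centres on, HET against WT, called none of the 48 genes at 12, 24 or 48 h or averaged over the 3 times in the fit without a replicate term. At this threshold the test called 0.00581% of all genes at 12 h, 0.00581% at 24 h, 0% at 48 h and 0.0174% on average, so a count of 0 is near the background. In limma without adjustment, 2, 1, 9 and 2 of the 48 had p under 0.05, against 8.41%, 1.15%, 22% and 13.5% of all genes. The authors' deposited table calls 0 of the 48 at all 3 times. Of all genes it calls 0.0116% higher and 0.0116% lower at 12 h, 0.00581% each way at 24 h, and 2.7% higher and 3.27% lower at 48 h. The medians were 0.09, 0.08 and -0.08 at 12, 24 and 48 h, against -0.02, 0.01 and -0.03 for all genes. Above 0 lay 39, 40 and 14 of the 48, against 47.2%, 52.9% and 45.2% of all genes.

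At 48 h the HET against WT values were compared by role, with no call. The constitutive beta genes had a median log2 fold change of -0.11 in HET against WT, the core chaperones -0.30 and the cap chaperones -0.22, none passing the test. All 4 core chaperones lay below 0 on the main scale, on the plain adjusted columns and with quantile normalization. Of the 7 beta genes, Psmb5 was at -0.0011 and turned above 0 under both other scalings, Psmb1 (-0.013) did so on the plain adjusted columns, and of the 3 cap chaperones Psmd9 did so with quantile normalization. Among the genes lower without overlap, the values were Psmg1 at -0.42 ± 0.15 (SE, adjusted p = 0.122), Psmd11 at -0.34 ± 0.10 (adjusted p = 0.0848), Psmg2 at -0.32 ± 0.12 (adjusted p = 0.141) and Psmd8 at -0.27 ± 0.10 (adjusted p = 0.119), and 7 others were nearer 0. Psma8 (-0.46) and Psmg3 (-0.28) had values of like size with overlapping groups. The inducible subunits had values above 0: 0.58 ± 0.21 for Psmb8 (adjusted p = 0.126), 0.63 ± 0.35 for Psmb9 (adjusted p = 0.299) and 0.42 ± 0.15 for Psmb10 (adjusted p = 0.129). Every HET culture at 48 h exceeded every WT culture for these 3 genes, and the reverse held for Psmg1, Psmg2, Psmd8 and Psmd11. In all, 6 genes lay higher and 11 lower in HET without overlap at 48 h, against 9.57% and 14.4% of all genes. Psmb10 alone was called without WT 48 h replicate 3, the culture with the highest WT value. At 48 h the macrophage marker sum was 2907 to 4226 in HET and 4406 to 6685 in WT. The neutrophil sum was 119 to 1755 in HET, where replicate 3 held the 1755, and 79.0 to 124 in WT. The sensory neuron sum was 768718 to 832279 in HET and 682409 to 740149 in WT, also without overlap. Their part was not tested.

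At 12 h, 7 of the 48 genes lay higher in HET without overlap and 1, Psmd11, lower, against 7.07% and 8% of all genes. At 24 h none did in either direction, against 2.81% and 2.79%. The 95% intervals show what sizes these data allow. For the cutting subunits at 48 h, the interval of HET against WT ran from -0.31 to 0.31 for Psmb5, from -0.38 to 0.03 for Psmb6 and from -0.25 to 0.14 for Psmb7 on the log2 scale.

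Whether the change from 12 to 48 h differed between genotypes was tested directly, as the difference of the log2 fold changes, HET minus WT. No gene of the 48 passed, and 0% of all genes did. In limma without adjustment 7 of the 48 had p under 0.05, against 8.92% of all genes: Psmd8 (-0.37), Psmg2 (-0.46), Psmc4 (-0.27), Psmd5 (-0.36), Psma2 (-0.30), Psmc1 and Psma4, all with a smaller rise in HET and an adjusted p of 0.548 (0.551 for the last 2). The median was -0.17, against -0.01 for all genes, and 10 of the 48 lay above 0, against 48.6% of all genes. Of the 29 genes that rose in WT, 29 changed less in HET (median 0.21 against 0.39). Genes were chosen for their rise in WT here, and of all 5152 genes that rose in WT 95.4% also changed less in HET (median 0.37 against 0.66), so nothing particular to the proteasome genes is read from it. For Psmb8 and Psmb9 the differences were 0.53 and 0.82, with adjusted p of 0.578 and 0.589. The other inducible subunit, Psmb10, already had the higher mean in HET at 12 h, 1075 normalized counts against 859 in WT. At 48 h the means of Psmb10 were 912 in HET and 689 in WT.

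Genes that act with the proteasome but lie outside the symbol rule were read from 4 lists, whose counts stand beside 30% of all genes higher and 17.1% lower in WT from 12 to 48 h, and 10.6% and 3.62% in HET. Of 13 genes for the transcriptional control of proteasome genes, which include the processing factors Ngly1, Sel1l and Syvn1, 1 rose and 5 fell in WT, with a median of -0.43 against 0.11 for all genes. Bach1 (-0.94, adjusted p = 7.32e-05), Mafk (-0.86) and Maff (-0.79) fell most, repressors and partners at antioxidant response elements, and the list's Nfe2l2 fell by 0.64. Nfe2l1 had 29305 ± 1313 normalized counts at 12 h and 25530 ± 1174 at 48 h in WT (mean ± SD, n = 3). In HET it had 29789 ± 350 and 28190 ± 3480, and its part in the subunit result was not tested. Sel1l, a component of the retrotranslocation machinery, rose by 0.29 but not on the plain adjusted columns. In HET, Bach1 (-0.50) and Nfe2l2 (-0.34) fell and Sel1l (0.25) rose. Of 26 alternatives each, these HET calls were lost under 6 for Bach1, 16 for Nfe2l2 and 7 for Sel1l. Of 21 measured partners, 4 rose and 6 fell in WT: the shuttle receptor Ubqln2 fell by 1.02, Zfand2a by 0.66 and Zfand5 by 0.59, while Ubqln4 (0.37), the importin Ipo9 (0.35) and the shuttle factor Rad23b (0.23) rose, Rad23b not on the plain adjusted columns. In HET only Zfand5 (-0.45) was called. Of 9 ubiquitin and ubiquitin-activating genes, 3 rose and none fell in WT, among them the ubiquitin hydrolase Uchl3 (0.85) and the activating enzyme Uba6 (0.65), and Uba6 (0.36) rose in HET. Of 14 antigen presentation and interferon genes, none rose and 4 fell in WT, led by the factor Irf8 (-1.46), the peptide-loading chaperone Tapbp (-0.96) and the class I gene H2-K1 (-0.95), beside the fall of Psmb8, and Tapbp (-0.50) fell in HET. The HET calls of Zfand5, Uba6 and Tapbp were lost under 7, 8 and 5 of 26 alternatives. No gene of the 4 lists was called in HET against WT at any time.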

How the data were processed

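The 48 genes were taken by symbol from 1 deposited table of 17198 genes in 18 cultures; members and gene lists were chosen with earlier results of these data known. The submitters' processing notes name CASAVA 1.8.2, edgeR and mm10 without a role; aligner, counter and annotation are not given in the sources used here. Per the file headers, the values tested are normalized counts made by the authors, a signal with no whole number and no 0; their totals run from 41509705 to 41509874, so depth is unknown and no floor or interval from counts was computed. The authors also deposited FPKM, plain adjusted columns (a second signal, totals from 39465712 to 44213485), log2 fold changes and adjusted p-values; 24 other per-sample columns were not used. Of 17 directions possible among samples, 2 are absent from the deposited values, by a step not given in the sources used here.

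As the values were not counts, limma 3.58.1 (R 4.3.3) was fitted to log2(normalized count + 1) of all genes and 18 cultures, with 1 coefficient per group. eBayes was run with a trend, on 12 residual degrees of freedom plus a prior 4.97. Benjamini-Hochberg adjustment covered all genes, with a threshold of 0.05; a minimum mean of 1 removed 0 genes. The pseudocount of 1 understates folds of low genes. The script was tested on simulated data. Near copies were sought with blastn 2.17.0. Values by culture are given for Psmb5 to Psmb10 except where noted, for genes past the threshold between genotypes with or without a replicate term, and for up to 3 genes each way from 12 to 48 h in each genotype; other genes are given by group. Of the pathway lists, the 3 largest each way past the threshold are named, except 1 gene that is not reported here. Group means are by label; samples of 1 group correlated at r from 0.978 to 0.992.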

Additional observations from a re-analysis of the deposited data

How the results depend on the processing

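Of 26 alternatives per result, none changed the direction or call from 12 to 48 h in WT of Psmg1, Psmd8, Psmd5, Psma2, Psmb6 or Psmb7. Psmb5, not called, changed sign: -0.072 on the plain adjusted columns and -0.048 with quantile normalization, and on leaving out cultures from -0.12 to 0.20. The counts of called genes from 12 to 48 h in WT stayed between 22 and 30. A pseudocount of 0.1, no filter and a minimum mean of 5 moved no count by over 1.5 times. With only the groups compared in the fit, the counts were 5 from 12 to 24 h, 0 from 12 to 48 h and 0 from 24 to 48 h in HET. On the plain adjusted columns the median of the 48 genes from 12 to 48 h was 0.19 in WT and 0.0087 in HET.

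Replicate numbers were tested as a block. Of 9 same-numbered pairs of WT and HET at 1 time, 7 had deviations correlating over 0.1 (from -0.21 to 0.46, mean 0.17), and 14 of 18 cultures correlated best with their own number, a hint from the data and not the design, so pairing was not assumed. With the replicate block, 1 gene (Psmb8, higher) was called in HET against WT at 48 h, 1 from 12 to 24 h in WT, 8 from 12 to 48 h and 3 from 24 to 48 h in HET, and 28 from 12 to 48 h in WT, all 28 among the 30. With the replicate block and the 2 absent directions, HET against WT gave 3 at 48 h (all lower) and 1 averaged. The time comparisons gave 5 from 12 to 24 h in WT and 17, 6 and 2 from 12 to 24, 12 to 48 and 24 to 48 h in HET. The share of all genes called is not given for either block fit. Whether these counts exceed a general gain in calls can therefore not be told.

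Leaving out each culture in turn gave counts of 0 to 1 for HET against WT at 48 h, 0 to 5 from 12 to 24 h and 4 to 14 from 24 to 48 h in WT, and 4 to 13, 0 to 7 and 0 to 4 from 12 to 24, 12 to 48 and 24 to 48 h in HET. The remaining genotype comparisons stayed at 0. The cause of these changes was not tested. DESeq2 and another count normalization, planned for raw counts, were not run because the values are not counts.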
